A study of Mus musculus with 4 samples.

Results

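The Hox cluster genes were taken as every protein-coding gene of the deposited count table whose symbol is Hox, a cluster letter from a to d and a number. The rule used only the name and the biotype and no measured value. It found 39 of the 56748 genes listed, of which 11 belong to Hoxa, 10 to Hoxb, 9 to Hoxc and 9 to Hoxd. RNA-seq was performed on 4 libraries of E14 cells, a mouse embryonic stem cell (mESC) line cultured without feeder cells in serum and LIF. WT1 and WT2 came from wild-type (WT) cells, and KO1 and KO2 came from Npac knockout (KO) cells made with CRISPR/Cas9, and the study compared the genotypes. Npac, listed as Glyr1, is a nuclear protein that binds chromatin of transcribed genes. The study described its knockout cells as clone 1 and clone 2, and the labels give 1 library as KO1 and 1 as KO2, so each KO library stands for 1 clone and clone and genotype cannot be told apart within a library. Nothing in the labels says whether the WT libraries came from separate cultures, so p-values measure only the spread between these libraries, which may be technical.

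Hox genes encode transcription factors that bind DNA through a homeodomain and give cells along the head-to-tail axis of the embryo their regional identity. They lie in 4 clusters in which the low-numbered genes are switched on first and furthest toward the head, and the high-numbered genes later and closer to the tail. In ES cells the clusters are textbook targets of Polycomb repression and carry active and repressive histone marks together, and retinoic acid, Wnt and FGF signals through Cdx factors open them during differentiation. Genes of the same number in different clusters are paralogues, copies of an ancestral gene.

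Hox genes share the homeobox, so how far its sequence differs between them bears on how far reads can be assigned. The homeobox, the DNA that encodes the homeodomain, is printed for Hoxc13 and Hoxc12, which passed the test, and for Hoxd13, a paralogue of Hoxc13 that did not. Each is 180 bases long, 5′ to 3′, from the GENCODE vM21 transcripts, and the 18 capitals are the codons of the most conserved stretch of the DNA-recognition helix.
Hoxc13: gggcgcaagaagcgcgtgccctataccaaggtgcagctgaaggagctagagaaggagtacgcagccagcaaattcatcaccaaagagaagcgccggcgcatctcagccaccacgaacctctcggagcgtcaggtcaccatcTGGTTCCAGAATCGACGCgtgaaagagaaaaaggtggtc
Hoxc12: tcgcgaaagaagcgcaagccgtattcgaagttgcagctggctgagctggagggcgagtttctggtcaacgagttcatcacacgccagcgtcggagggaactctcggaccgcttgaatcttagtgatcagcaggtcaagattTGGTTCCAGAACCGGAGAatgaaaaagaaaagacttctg
Hoxd13: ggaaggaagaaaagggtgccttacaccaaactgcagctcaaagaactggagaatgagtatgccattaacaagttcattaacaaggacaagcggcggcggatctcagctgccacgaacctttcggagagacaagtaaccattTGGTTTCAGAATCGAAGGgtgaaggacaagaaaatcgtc
The homeobox of Hoxc13 was identical to that of Hoxa13 at 77.2% of bases, of Hoxd13 at 75.0% and of its cluster neighbour Hoxc12 at 62.2%. The longest run of bases shared exactly with transcripts of any other gene was 32 bases for Hoxc13, 27 for Hoxd13 and 20 for Hoxc12. All these runs are shorter than the 150-base reads.

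The total count lay between 15850805 and 16965120 per library, so that 3 reads correspond to 0.172 to 0.196 CPM (reads scaled to a common library size after TMM normalization). Glyr1 had 3961 and 3115 reads in WT and 744 and 888 reads in KO libraries. In edgeR's quasi-likelihood test, with p-values adjusted by the Benjamini-Hochberg method over all genes tested, its log2 fold change was -2.14 with a standard error of 0.23 (adjusted p = 0.00174). The same test gives every edgeR value that follows. Of 10 pluripotency markers all were tested and 1, Zfp42, fell, and their summed level was 6103 to 7506 CPM in WT and 5108 to 5454 CPM in KO libraries. For comparison with this list and those that follow, 11% of all genes tested were called up and 10.7% down. Markers of other cell types were also present. The posterior mesoderm list of 10 genes, 6 of them tested and 0 called, summed to 7.66 to 16.9 CPM in WT and 18.5 to 26.6 CPM in KO libraries. The trophectoderm list of 8 (6 tested, 1 up) summed to 88.0 to 89.5 CPM in WT and 196 to 226 CPM in KO libraries. The neural list of 10 (7 tested, 2 up and 1 down, Dcx at 0) summed to 116 to 126 and 136 to 158 CPM. The fibroblast list of 11 (5 tested, 1 up, Col3a1 and Dcn at 0) summed to 44.1 to 83.1 and 56.0 to 68.2 CPM, and the endoderm list of 9 (5 tested, 1 down, Cer1 at 0) to 26.9 to 28.2 and 14.4 to 23.7 CPM. The part of such cells in the Hox values was not tested, and in bulk libraries fewer cells of a type and less RNA per cell cannot be told apart.

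Hox transcripts were scarce in these mESCs. Summed over the 39 genes there were 635 and 1177 reads in WT and 502 and 896 in KO libraries, each pair being given as replicate 1 and then replicate 2 throughout. Every Hox gene had a read in at least 1 library, but 7 genes never had more than 3 reads, and 3 genes, Hoxc13 and Hoxb9 among them, reached 100 reads in any library. The filter on low counts was passed by 18 Hox genes, and the other 21 are given as reads. Of the 18, Hoxb4 rose and Hoxc12 and Hoxc13 fell, the thresholds being 1.5-fold and an edgeR adjusted p of 0.05. The share of all 18157 genes tested was 11% for a rise and 10.7% for a fall. The KO pair lay wholly above the WT pair in 4 of the 18 genes and wholly below it in 6, against 33.2% and 32.5% of all genes tested, and the genotypes overlapped in 8. The median log2 fold change was -0.03 over the 18 Hox genes and 0.00 over all genes tested. The shares of Hox genes called were thus near or below the background, and the members went in different directions in different clusters.

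**Figure D1:**
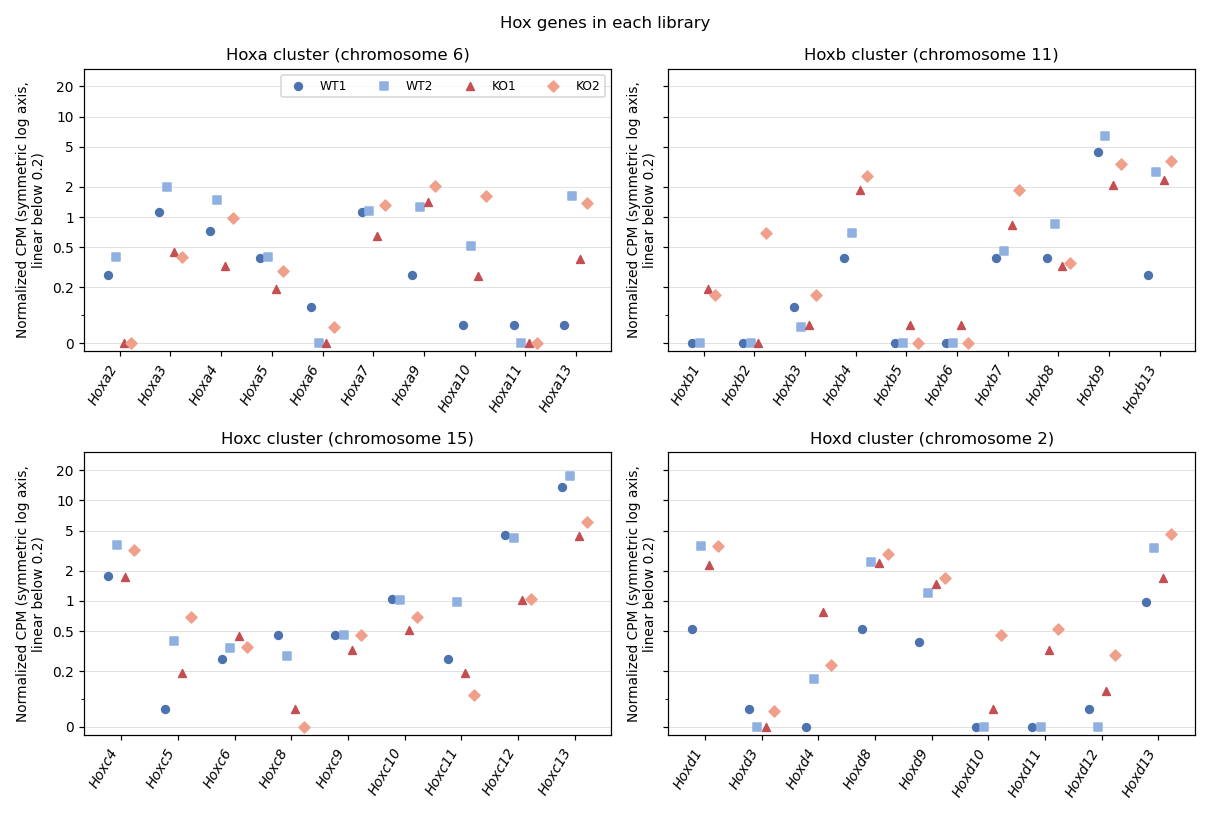
Level of Hox genes in each library (TMM-normalized CPM on a symmetric log axis that is linear below 0.2), with 1 panel per cluster, genes in order of number, blue points for WT and red points for KO libraries. Hoxc13 stands highest in the WT libraries, and for Hoxc13 and Hoxc12 both KO libraries lie below both WT libraries. Hoxb4 has both KO libraries above both WT libraries, and most other genes lie under 5 CPM with wide spread between WT1 and WT2.

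Per kilobase of gene length, the scale on which genes can be compared, Hoxc13 had the highest mean level in WT libraries (6.31 CPM per kb), followed by Hoxc12 (4.22), and Hoxb9 was at 2.11. In KO libraries Hoxc13 (2.15 CPM per kb) was followed by Hoxd1 (1.55), and Hoxb13 (1.34) and Hoxd13 (1.28) lay below them. The highest gene was thus the same in both genotypes, and its KO level lay at about the WT level of Hoxb9. In the KO order Hoxd1, Hoxb13 and Hoxd13 lay within the spread of their libraries.

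The Hoxc cluster on chromosome 15 (102829538 to 102945278 in the files' coordinates) held both genes that fell. Hoxc13, a regulator of hair and nail keratin genes, had 206 and 307 reads in WT and 69 and 106 reads in KO libraries. Both KO libraries were well below both WT libraries, and the level went from 15.5 ± 2.89 to 5.28 ± 1.19 CPM (SD, n = 2 each). This is a log2 fold change of -1.55 with a standard error of 0.33 (edgeR adjusted p = 0.0164). Hoxc12, the next gene of the cluster and also a posterior gene active in skin appendages, had 69 and 73 reads in WT and 16 and 18 in KO libraries. The WT libraries lay close together here, as did the KO libraries, at 4.35 ± 0.240 and 1.03 ± 0.008 CPM (SD, n = 2 each). At 16 and 18 reads, counting error alone is larger than this KO SD, so the SD is no measure of precision. Hoxc12 thus changed by -2.06 on the log2 scale, with a standard error of 0.45 (edgeR adjusted p = 0.0178). Neither gene overlaps another gene in the annotation of the file. Both calls held in each of 10 other settings with all libraries. Adjusted p there (edgeR, DESeq2 or limma) was 0.00134 to 0.0224 for Hoxc12 and 0.000333 to 0.0228 for Hoxc13. Those of the 10 settings that only loosened a threshold of the same fit could not lose a call. Neither call held with a single KO library. With KO1 or KO2 left out, the lone KO library being assumed to vary like the WT pair, adjusted p was 0.138 to 0.152 for Hoxc12 and 0.0641 to 0.153 for Hoxc13 (edgeR), at log2 fold changes of -2.07 for Hoxc12 and of -1.81 to -1.36 for Hoxc13.

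The other 7 Hoxc genes summed to 5.71 ± 1.96 CPM in WT and 4.48 ± 1.42 CPM in KO libraries (SD, n = 2 each), a difference within the spread between libraries. Hoxc10, a gene of the lumbar level, had 16 and 18 reads in WT and 8 and 12 in KO libraries, and its log2 fold change of -0.77 did not pass the test (standard error 0.55, edgeR adjusted p = 0.344). Hoxc4, at the other end of the cluster, had 27 and 63 reads in WT and 27 and 55 in KO libraries, so that the genotypes overlapped (log2 fold change -0.13, standard error 0.54). Hoxc8 had 7 and 5 reads in WT and 1 and 0 in KO libraries, a ratio of 0.0831 with an exact counting interval of 0.00194 to 0.561. Hoxc11 had 4 and 17 reads in WT and 3 and 2 in KO libraries. Hoxc5, Hoxc6 and Hoxc9 had 1 to 12 reads in every library, and Hoxc5 overlaps Hoxc6, Hoxc8, Hoxc9 and Hoxc10 on the same strand, so that reads may be split or lost among them. Hoxc12 and Hoxc13, a pair picked because both were called lower, made up 43.3% of all Hox reads in WT1 and 32.3% in WT2. In KO1 they made up 16.9% and in KO2 13.8%. The whole Hoxc cluster went from 25.6 ± 4.61 to 10.8 ± 2.62 CPM, which is 42.2% of the WT mean. Leaving out 1 library at a time gave log2 ratios of -1.52 to -1.02.

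The Hoxb cluster on chromosome 11 (96085142 to 96259082) held the gene that rose. Hoxb4, known for expanding blood stem cells, had 6 and 12 reads in WT and 29 and 44 reads in KO libraries. The KO pair did not overlap the WT pair, at 2.204 ± 0.478 against 0.540 ± 0.208 CPM (SD, n = 2 each). The fitted rise was 2.01 on the log2 scale with a standard error of 0.57 (edgeR adjusted p = 0.0416). The call rested on few reads and did not hold with DESeq2 (adjusted p = 0.0900), over protein-coding genes alone (edgeR, 0.0509) or without WT1 (0.0590), KO1 (0.140) or KO2 (0.2499), although the log2 fold change was at least 1.65 in each of these. Over the 1455 genes tested on chromosome 11 the median log2 fold change was 0.50, with 26.7% called up and 3.99% called down. With the median of each chromosome removed from each KO library, the log2 fold change of Hoxb4 was 1.55 (standard error 0.56, edgeR adjusted p = 0.0938) and the call was lost.

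The 250 bases upstream of the Hoxb4 start in RefSeq (GRCm38.p6, chr11:96318017-96318266, plus strand) are printed because this was the 1 called gene with a window in the promoter table. Capitals mark each CG dinucleotide, the site of DNA methylation, which reads the same on both strands.
Hoxb4 upstream: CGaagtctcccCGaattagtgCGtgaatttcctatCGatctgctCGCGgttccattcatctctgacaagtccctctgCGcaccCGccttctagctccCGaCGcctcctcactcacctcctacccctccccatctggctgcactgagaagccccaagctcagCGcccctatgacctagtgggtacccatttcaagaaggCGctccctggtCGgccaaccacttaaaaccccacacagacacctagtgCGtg
The window holds 14 CG dinucleotides at 58.0% GC. The table matched 22 of the 39 Hox genes, with 24 windows of the same length, which held 2 to 35 CG dinucleotides (median 12.5). Over all 32851 windows the median was 6, and at least 14 were found in 41.7% of the Hox windows and 29.4% of all windows. Hoxb4 is therefore ordinary among Hox genes in this respect. These coordinates are not those of the count table, which did not match this build.

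The other Hoxb genes did not pass the test. Hoxb7, a trunk gene 3 numbers further along, had 6 and 8 reads in WT and 13 and 32 in KO libraries, both KO libraries being higher (log2 fold change 1.64, standard error 0.64, edgeR adjusted p = 0.101). Hoxb9, which patterns the ribs, was the most abundant Hoxb gene per kilobase in WT libraries, with 68 and 112 reads in WT and 32 and 58 in KO libraries. It was lower in both KO libraries, at 5.43 ± 1.38 against 2.70 ± 0.914 CPM (log2 fold change -1.002, standard error 0.44, edgeR adjusted p = 0.141), while the median of its chromosome was above 0. With chromosome medians removed its log2 fold change was -1.46 (standard error 0.45, edgeR adjusted p = 0.0581). Hoxb13, the most posterior gene of the cluster, had 4 and 49 reads in WT and 36 and 62 reads in KO libraries. WT2 lay between the KO libraries and WT1 far below all 3 others, and the standard error of its log2 fold change (0.92) was 0.85. Among the scarce genes, Hoxb1 had 0 reads in both WT libraries and 3 in each KO library, at the floor, Hoxb2 had 12 reads in KO2 and 0 in the other 3, and Hoxb3, Hoxb5 and Hoxb6 had 0 to 3 reads. Hoxb8 had 6 and 15 reads in WT and 5 and 6 in KO libraries.

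Split by position, a division chosen after the values were seen, Hoxb1 to Hoxb7 summed to 1.06 ± 0.202 CPM in WT and 4.26 ± 1.66 CPM in KO libraries, 14 and 21 reads against 48 and 94. Every KO value was above every WT value, and Hoxb4 and Hoxb7 held most of these reads. The log2 ratio was 2.01, with a range of 1.54 to 2.36 on leaving out 1 library at a time. Hoxb8, Hoxb9 and Hoxb13 summed to 7.59 ± 3.51 and 5.99 ± 1.83 CPM, with overlapping genotypes. The cluster as a whole therefore differed little, at 8.65 ± 3.71 and 10.2 ± 3.48 CPM.

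The Hoxa cluster on chromosome 6 showed the opposite arrangement in its values. Hoxa3, needed for the thymus and parathyroid, had 17 and 35 reads in WT and 7 in each KO library, and its log2 fold change was -1.86 (standard error 0.60, edgeR adjusted p = 0.0609). Hoxa2, which sets the identity of the second pharyngeal arch, had 4 and 7 reads in WT and 0 in both KO libraries, which is at least 1.81-fold lower against a floor of 3 reads per library. With all libraries and the filter on low counts, no Hoxa gene passed the test in edgeR, none did in DESeq2, and 2, Hoxa3 among them, had an unadjusted p under 0.05. Hoxa3 passed without the filter on low counts (edgeR adjusted p = 0.0432), with the replicate number as a block (0.0341) and without WT1 (0.0117). Hoxa3 spans Hoxa4, Hoxa5 and Hoxa6 on the same strand and Hoxaas3 on the other, so that their reads may not be separate.

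Hoxa2 to Hoxa5 together, again grouped after the values were seen, had 3.39 ± 1.28 CPM in WT and 1.32 ± 0.502 CPM in KO libraries, and every KO value was below every WT value. The log2 ratio was -1.36, with a range of -1.81 to -0.91 on leaving out 1 library at a time. Hoxa6 to Hoxa13 had 3.11 ± 1.99 and 4.56 ± 2.62 CPM, with overlapping genotypes. Among these, Hoxa9, a gene of blood progenitors, had 4 and 22 reads in WT and 22 and 35 in KO libraries (log2 fold change 1.15, standard error 0.72, edgeR adjusted p = 0.281). Hoxa13, needed for digits and the genital tract, had 1 and 28 reads in WT and 6 and 24 reads in KO libraries, a spread within each genotype larger than the difference between them. Hoxa4 and Hoxa7 had 11 and 26 and 17 and 20 reads in WT, and 5 and 17 and 10 and 23 reads in KO libraries, also overlapping. Hoxa10 had 1 and 9 reads in WT and 4 and 28 in KO libraries, and Hoxa5, Hoxa6 and Hoxa11 had 0 to 7 reads.

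The Hoxd cluster on chromosome 2 (74498654 to 74595486) was the one most dependent on a single library. Its summed level was 2.55 and 10.8 CPM in WT and 9.07 and 14.4 CPM in KO libraries, so that WT1 stood apart and WT2 lay between the KO libraries. The log2 ratio of the genotypes was 0.82, but 0.12 without WT1 and 2.199 without WT2. Hoxd13, the gene of digit and genital development, had 15 and 59 reads in WT and 26 and 81 in KO libraries. Hoxd1 had 8 and 62 reads in WT and 35 and 61 in KO libraries, and Hoxd8 had 8 and 43 against 37 and 51. In all 3, WT2 overlapped the KO libraries, and their log2 fold changes of 0.54, 0.49 and 0.82 had standard errors of 0.70, 0.77 and 0.68. Hoxd9 had 6 and 21 reads in WT and 23 and 29 in KO libraries, so that both KO libraries were higher, but not past the test (log2 fold change 0.96, standard error 0.63, edgeR adjusted p = 0.303). With all libraries and the filter on low counts, no Hoxd gene was called in edgeR or DESeq2, and none had an unadjusted p under 0.05. Without the filter Hoxd11 was called up, and without WT2 Hoxd1, Hoxd8, Hoxd9 and Hoxd13 were.

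The scarce Hoxd genes had few or no reads in WT libraries. Hoxd10 had 0 reads in both WT libraries and 1 and 8 in KO libraries, Hoxd11 had 0 against 5 and 9, and Hoxd12 had 1 and 0 against 2 and 5. Against the floor of 3 reads per library, the mean of the KO libraries was at least 1.43-fold higher for Hoxd10 and 2.29-fold for Hoxd11. The 1 read of Hoxd10 in KO1 was itself under the floor, so its bound rested on the 8 reads in KO2. Hoxd4 had 0 and 3 reads in WT and 12 and 4 in KO libraries, a ratio of 5.32 with an exact counting interval of 1.52 to 28.5. Hoxd3 had 0 or 1 read in every library. Of the 4 Hoxd genes tested, both KO libraries were higher in 1 and lower in 0, against 33.2% and 32.5% of all genes tested. Over all 9 Hoxd genes, they were both higher in 5 and both lower in 0. But 4 of these 5 were genes with at most 12 reads in a library, where single reads decide the order.

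**Figure D2:**
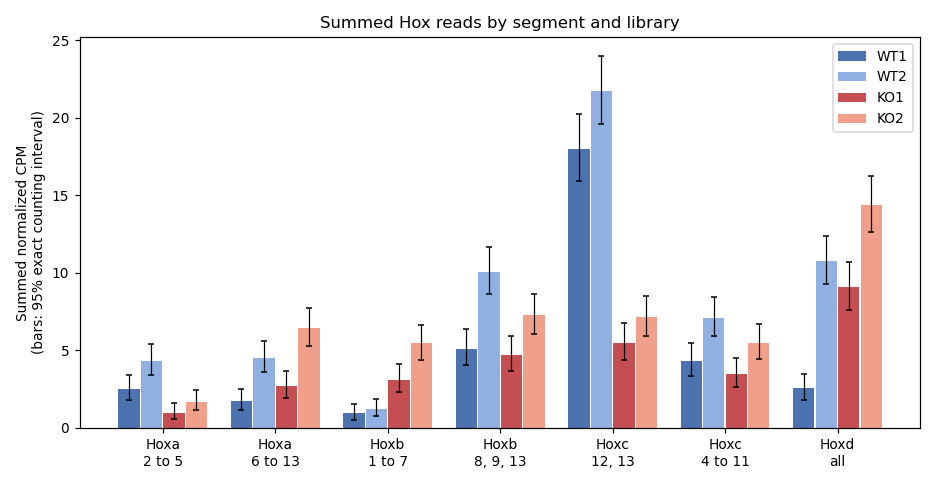
Summed TMM-normalized CPM of Hox genes by cluster segment in each library, with bars from 0 and exact 95% counting intervals, which cover counting error only. The segments of Hoxa, Hoxb and Hoxc were chosen after the values were seen, Hoxc12 with Hoxc13 being the genes called lower. For Hoxa2 to Hoxa5 and for Hoxc12 with Hoxc13 both KO bars lie below both WT bars. For Hoxb1 to Hoxb7 both KO bars lie above both WT bars. These orders follow in part from the choice. WT1 is the lowest bar for the Hoxd cluster.

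The libraries of 1 genotype differed from each other in a way shared by many Hox genes. WT2 was above WT1 in 16 of the 18 Hox genes tested, and more than 2-fold above it in 9, where 10.3% of all genes tested were, and the reverse was seen in 0 Hox genes and 6.26% of all genes tested. KO2 was above KO1 in 17 of the 18, and more than 2-fold above it in 5, against 5.21% of all genes tested. The summed Hox level was 1.62 times as high in WT2 as in WT1 and 1.60 times as high in KO2 as in KO1. Hoxc12 and Hoxc10 were the 2 genes in which WT2 was not above WT1. What set these libraries apart was not tested.

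With 1 WT library left out the WT arm has a single library, which is assumed to vary like the KO pair, and more genes were called in all. Without WT1 the Hox genes called in edgeR were 5 down (Hoxa3, Hoxb9, Hoxc12 and Hoxc13 among them) and 0 up, where 15.4% of all genes tested fell and 14.8% rose. Without WT2 they were 8 up (Hoxa9, Hoxa13, Hoxb4, Hoxb13, Hoxd1, Hoxd8, Hoxd9 and Hoxd13) and 2 down (Hoxc12 and Hoxc13), where 19.1% of all genes tested rose and 18.2% fell. The direction in which Hox genes as a set appeared to move thus depended on which WT library was the reference.

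**Figure D3:**
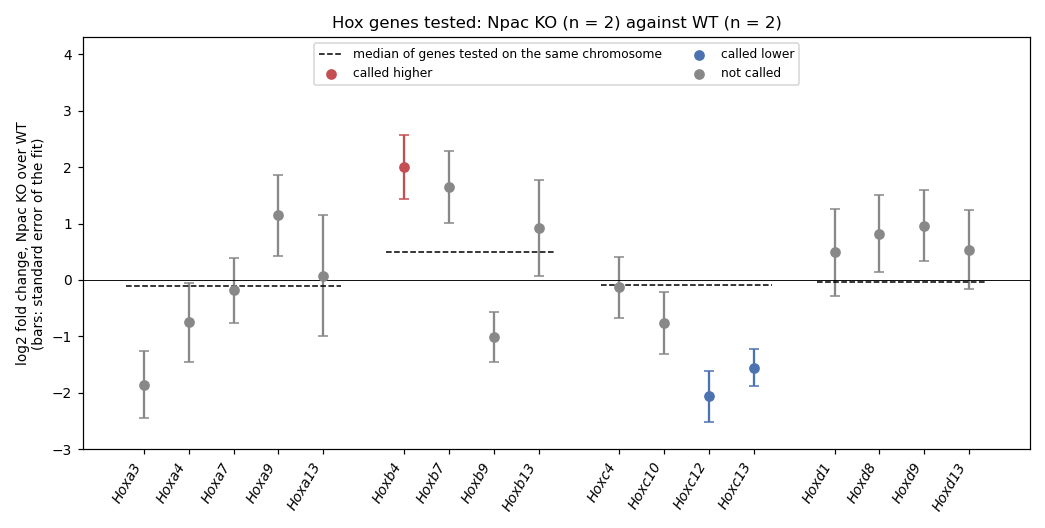
Log2 fold change of Npac KO over WT libraries for Hox genes tested, by cluster, with the standard error of the edgeR fit as bars and the median of all genes tested on the same chromosome as a dashed line. Hoxb4 (2.01) was called higher and Hoxc12 (-2.06) and Hoxc13 (-1.55) lower, and for most other genes the bar is wide beside the change.

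The KO lines had 1 library each and shared the WT libraries, so their values are given side by side. No Hox gene was called in either line alone (edgeR), where 3.83% of all genes tested were called up and 3.34% down in KO1, and 3.1% up and 2.34% down in KO2. The log2 fold change against the WT libraries was -2.07 in KO1 and -2.06 in KO2 for Hoxc12, -1.81 and -1.34 for Hoxc13, and 1.77 and 2.21 for Hoxb4. It was -1.78 and -1.93 for Hoxa3, 0.96 and 2.10 for Hoxb7, and -1.40 and -0.70 for Hoxb9. These genes had the same direction in both lines, as they must, since in each both KO libraries lay on the same side of both WT libraries. Hoxd13, whose genotypes overlapped, did not, at -0.39 and 1.09, nor did Hoxa13, also overlapping, at -1.12 and 0.70.

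By order along the axis rather than by cluster, the 8 anterior genes (numbers 1 to 3) summed to 11.1 ± 3.61 CPM in WT and 7.37 ± 2.24 CPM in KO libraries. The 15 central genes (4 to 8) summed to 9.46 ± 4.03 and 12.3 ± 3.45 CPM, and the 16 posterior genes (9 to 13) to 33.9 ± 10.6 and 22.3 ± 8.08 CPM. In each class the genotypes overlapped, so position alone did not separate the genotypes. The shares of Hox reads by cluster did not overlap between the genotypes. Hoxc held 53.7% of Hox reads in WT1 and 42.8% in WT2, but 27.7% in KO1 and 24.4% in KO2. Hoxd held 6.14% and 15.97% in WT and 28.1% and 27.8% in KO libraries, Hoxb 14.5% and 16.7% against 24.1% and 24.6%, and Hoxa 25.7% and 24.5% against 20.1% and 23.2%. These shares are not independent of each other, since a lower Hoxc share raises the rest. Hoxc12 and Hoxc13, the genes called lower, alone held 43.3% and 32.3% in WT and 16.9% and 13.8% in KO libraries. The Hoxd share differed widely between WT1 and WT2. Hoxb lies on chromosome 11, where the median log2 fold change was 0.50.

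The genes around the clusters were examined for the same directions, within 1000 kb on either side, a distance chosen after the data were seen. Beside Hoxb, 21 of 47 flanking genes tested rose and 0 fell, with a median log2 fold change of 0.81, where 26.7% of the genes tested on chromosome 11 rose and 3.99% fell. Around Hoxc 10 of 43 rose and 5 fell (median 0.32), against 9.26% and 12.5% on chromosome 15. Around Hoxd 2 of 13 rose and 2 fell (0.32), against 6.92% and 8.65% on chromosome 2, and around Hoxa 1 of 12 rose and 3 fell (-0.21), against 6.06% and 12.1% on chromosome 6. Over all genes tested 11% rose and 10.7% fell. These flanks were not uniform, and the closest gene tested on either side of Hoxc, Calcoco1 (-0.61) and Smug1 (-0.92), also fell.

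**Figure D4:**
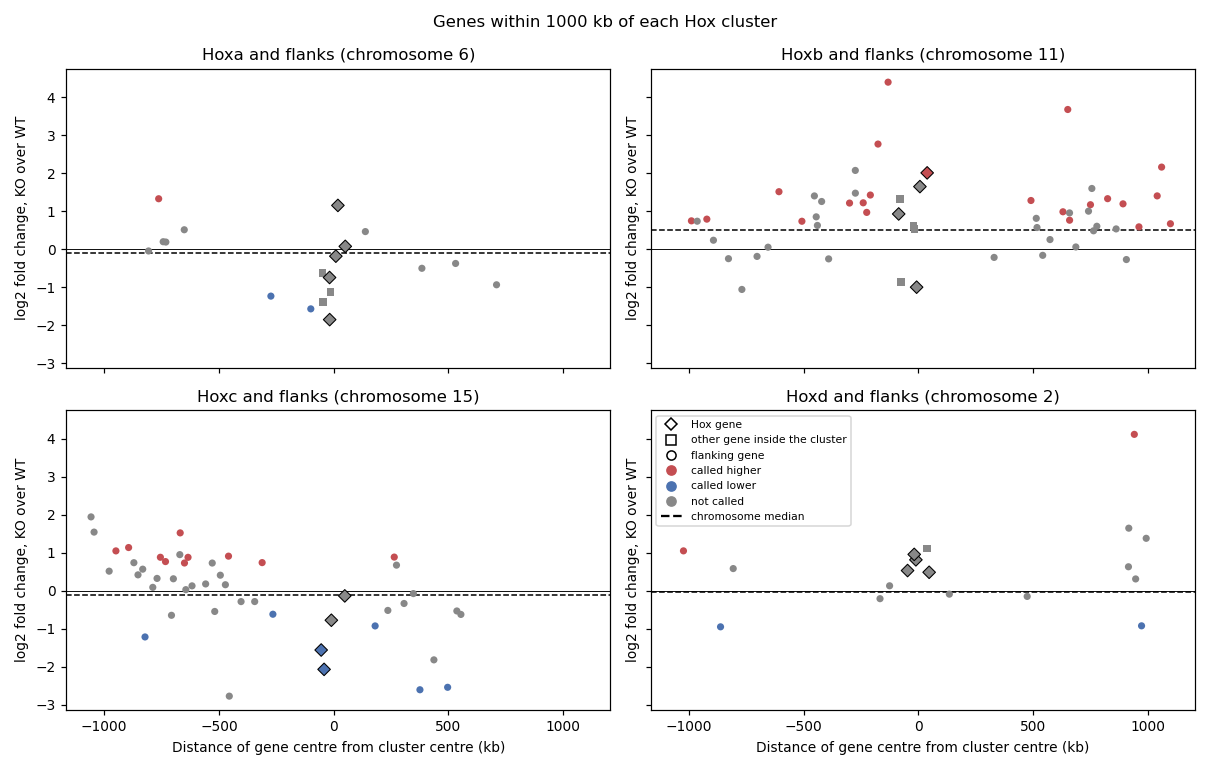
Log2 fold change of Npac KO over WT for genes tested within 1000 kb of each Hox cluster, against the distance of the gene's centre from the cluster's centre in kb, with diamonds for Hox genes, colour for calls and a dashed line at the median of the chromosome. Around Hoxb 21 of 47 flanking genes are called higher, and around Hoxc 10 of 43 are called higher and 5 lower, with Hoxc12 and Hoxc13 themselves below 0.

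A list of 30 named genes beside the clusters, 29 of them in the table, had 25 tested, 8 up and 4 down, where 11% of all genes tested rose and 10.7% fell. Of the 11 tested beside Hoxb, 7 rose and 0 fell, where 26.7% of the genes tested on chromosome 11 rose and 3.99% fell. The largest rise was that of Ttll6, a tubulin-modifying enzyme gene, with 58 and 71 reads in WT and 1250 and 1471 in KO libraries (log2 fold change 4.39). Calcoco2, an autophagy receptor gene (2.76), Atp5g1 (1.42), Snx11 (1.28), Snf8 (1.22), Igf2bp1 (1.21) and Ube2z (0.97) followed. With chromosome medians removed Ube2z was at 0.50 (edgeR adjusted p = 0.0772) and lost its call. The others kept theirs, from Ttll6 at 3.93 to Igf2bp1 at 0.75. Beside the other clusters 1 of 14 rose, Hnrnpa1 near Hoxc (0.89). Of these 14, 4 fell, namely Skap2 near Hoxa (-1.24), Smug1 (-0.92) and Calcoco1 (-0.61) near Hoxc, and Atf2 (-0.94). Atf2 lies at -862 kb from the centre of Hoxd. The closer genes Lnpk (at -167 kb, log2 fold change -0.20) and Mtx2 (at 135 kb, -0.08) were not called.

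Over all genes tested 11% rose and 10.7% fell, and of 17 noncoding genes listed for the clusters 5 were tested and 1 fell. This was Halr1, a long noncoding RNA beside the Hoxa cluster, with 653 and 518 reads in WT and 124 and 282 in KO libraries, at 36.2 ± 9.27 and 12.1 ± 5.88 CPM (log2 fold change -1.57, standard error 0.36, edgeR adjusted p = 0.0218). Both KO libraries lay below both WT libraries, as for Hoxa2 and Hoxa3 and for 32.5% of all genes tested. Hotairm1 in Hoxa had 44 and 43 reads in WT and 29 and 27 in KO libraries (log2 fold change -0.64, edgeR adjusted p = 0.341). Hoxaas3 had 14 and 26 against 8 and 10 reads (-1.13, 0.190), and Haglr in Hoxd had 5 and 14 against 19 and 22 (1.12, 0.222). Mir196a-1 in Hoxb had 17 and 29 against 31 and 35 (0.53, 0.472). Mir10a, Mir10b, Mir196a-2, Mir196b and Mir615 were at 0 in every library.

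Genes that act with or on Hox genes, or belong to signals upstream of them, were described in the same fit. In it 11% of all genes tested rose and 10.7% fell. Of 9 Hox cofactors, TALE homeodomain proteins that bind DNA together with Hox proteins, all were tested, Pbx4 rose (log2 fold change 1.12) and 2 fell, Pbx3 (-0.99) among them. A list of 20 held Cdx genes and genes of retinoic acid, Wnt and FGF signals, not all of them activators of Hox genes. Of these 16 were tested, 3 rose and 2 fell. Fgf17 (1.94), Crabp1 (1.31) and Rarg (0.77) rose, and Stra8 (-1.55) and Rxra (-1.06) fell. Cdx1, a direct activator of Hox genes, had 45 and 112 reads in WT and 146 and 280 in KO libraries and did not pass the test (1.44, standard error 0.46, edgeR adjusted p = 0.0601).

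Of 33 Polycomb genes, whose proteins keep Hox clusters silent, all were tested, 3 rose and 2 fell, no larger a share than the 11% and 10.7% of all genes tested. Suz12, a core subunit of PRC2 on chromosome 11, had 3496 and 3186 reads in WT and 12426 and 14356 in KO libraries (log2 fold change 1.99, standard error 0.20, edgeR adjusted p = 0.00141). With chromosome medians removed it was 1.52 (edgeR adjusted p = 0.00403). Ezh1 on the same chromosome (1.52) and Kdm2b (0.68) rose, and Cbx6 (-1.13) and Rnf2 (-0.59) fell. Of 20 genes of the opposing MLL/trithorax group and its partners, all were tested, with 2 up, Mllt3 (1.27) and Ash2l (0.68), and 2 down, Aff1 (-1.11) and Rbbp5 (-0.74).

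Other developmental homeobox genes were set beside the Hox genes. Of 88 such genes 59 were tested, 10 rose and 1 fell, where 11% of all genes tested rose and 10.7% fell, with a median log2 fold change of 0.69. Both KO libraries were higher in 32 of the 59 and lower in 10, against 33.2% and 32.5% of all genes tested. The Hox median was -0.03, with 9 genes above 0 and 9 below. Large rises among the genes called were those of Uncx, with 0 and 4 reads in WT and 26 and 49 in KO libraries (log2 fold change 4.15), Nkx2-9 (3.46), Pitx1 (2.83) and En2 (2.80). The mean of Uncx lay just under 20 reads, and its fold change rests on few WT reads. The difference between the lists was not tested.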

How the data were processed

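The authors' processing notes name CASAVA, HISAT2 2.0.5, featureCounts 1.5.0-p3 and mm10, and the paper gives another HISAT version. The annotation and the use of strand are not given in the sources used here. No Hox start in the table matched GENCODE vM21, so coordinates are printed as deposited. The authors deposited raw read counts per gene, FPKM values (counts per gene length and library total times a factor of 0.940 to 1.04 per library) and, as other per-gene information, the gene length.

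The fits used edgeR 4.0.16 under R 4.3.3 (TMM, filterByExpr, quasi-likelihood test, Benjamini-Hochberg over 18157 genes, common biological coefficient of variation 0.235). The test was also run on counts simulated from the fitted dispersions, which cannot show whether its assumptions hold for these libraries. Genes were called at adjusted p under 0.05 and fold change over 1.5. Alternatives were DESeq2 1.42.0, limma-trend on log2(FPKM + 0.1) (limma 3.58.1), other filters and thresholds, upper-quartile normalization, a replicate block, protein-coding genes alone, chromosome medians removed and leaving out each library. The replicates were not copies (chi-square per gene 53.8 in WT, 16.4 in KO). Sums, shares and list medians carry no test, and intervals and floors (3 reads per library) cover counting error only. With 2 libraries against 2, an exact permutation test could not go below p = 0.333, so none was used.

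The Hox genes, lists and tests were chosen with earlier results of these data known. Named are Glyr1, Hox genes called or not overlapping, the 2 most abundant per cluster, up to 4 called genes per list with the largest change and a mean of at least 20 reads, and every called noncoding gene or gene beside the clusters. Uncx, with a mean just under 20 reads, is an exception. The other Hox genes, Rarg, Rnf2, Cdx1, and the noncoding genes that were not called were named after their values were seen. Some genes and a sequence that the rules would name are not reported here, and figures leave them out. Splicing was not analysed here.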

Additional observations from a re-analysis of the deposited data

How the results depend on the processing

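The fall of Hoxc12 and Hoxc13 was called in every setting run except those with 1 KO library. Settings that only loosened a threshold of the same fit could not lose a call or change a direction, here and in the counts below. Hoxb4 was the less stable call. The number of Hox genes up was 1, and it was 0 with DESeq2, with at least 10 counts in every library, over protein-coding genes alone and with chromosome medians removed, 2 without the filter (Hoxb4 and Hoxd11) and 2 at an unadjusted p (Hoxb4 and Hoxb7), and 0 to 8 when each library was left out. The number down was 2, and it was 4 at an unadjusted p and 0 to 5 when each library was left out. Over all genes, 3074 were up and 3090 down at an unadjusted p, and 642 to 3477 were up and 606 to 3311 down when each library was left out. The median log2 fold change of the Hoxa genes lay between -1.22 and 0.012 on leaving out 1 library at a time, that of Hoxb between 0.77 and 2.12, and that of Hoxd between -0.011 and 2.16. For Hoxb it was -0.997 with at least 10 counts in every library, where Hoxb9 alone remained. For Hoxc it was -0.76 without the filter, over all 9 genes, and -1.55 with at least 10 counts, over 3 genes. Hoxd1 changed sign without WT1, with a range of -0.32 to 2.45 over the libraries left out, and Hoxd13 without WT1 (-0.11) and without KO2 (-0.39), with a range of -0.39 to 1.69, and the cause was not tested. Of 160 values of 12 named Hox genes under the alternatives, 136 kept their direction and side of the threshold, 10 lost the call, 11 gained it and 3 changed sign.

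Without the filter on low counts 3 Hox genes were down (Hoxa3, Hoxc12 and Hoxc13), and 2862 genes were up and 2799 down in all. With the replicate number as a block, 4 Hox genes were down, Hoxa3 among those added, and Hoxb4 was still the 1 gene up. With this block 3128 genes were up and 2994 down in all. The deviations of same-numbered libraries correlated at 0.345 over 18157 genes, but with 2 pairs the libraries share only a number.

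Of the 39 Hox genes, 21 were too scarce to test, with at most 28 reads in any library.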
